A study of Mus musculus with 9 samples.

Results

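Transcripts of 60 genes of the endoplasmic reticulum (ER) secretory machinery and the unfolded protein response were compared among splenic dendritic cell (DC) subsets of the mouse. The genes were taken by name from the 39179 genes counted and encode the parts that carry a new protein into the ER, cut and glycosylate it, fold it, destroy it if it misfolds and pack it for export, together with the sensors and transcription factors that adjust this capacity. All 60 were found, and 59 were among the 13819 genes with enough reads to be tested. RNA was sequenced from CD8pos conventional DC (cDC1), CD8neg conventional DC (cDC2) and plasmacytoid DC (pDC) of C57BL/6J mice in the steady state, aged 6 to 12 weeks, with 3 libraries per subset. Each library came from the pooled spleens of 15 to 17 mice, so that variation between single animals is not seen. The cells were enriched by depletion with antibodies that included those to CD3, Thy-1, Ly6G/Ly6C and TER-119 and sorted on CD11c, CD45RA, CD8, CD11b and CD49b, and no antibody to plasma cells is named. All groups were wild type and untreated, and no group was given an agent that stresses the ER. The comparison asks how the resting subsets differ in this machinery.

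As background, proteins bound for the cell surface or for secretion are drawn into the ER through the Sec61 channel and fold there with the help of chaperones. When unfolded proteins accumulate, 3 membrane sensors respond. IRE1α (Ern1) splices the mRNA of the transcription factor XBP1, PERK (Eif2ak3) slows translation and favours ATF4, and ATF6 is cut to release a transcription factor. In DC this response is best known for the constitutive activity of the IRE1α and XBP1 branch, which has been linked to the upkeep of cDC1 and pDC, and pDC are known for a well-developed ER and for secreting large amounts of type I interferon once activated. The counts are per gene, so that spliced and unspliced Xbp1 mRNA were not separated and the activity of the sensors was not measured.

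Counts on genes summed to between 15806597 and 32453789 per library, and values are given as CPM, counts scaled to each library's total by edgeR's TMM factors. The floor, 3 counts, equals 0.0908 to 0.203 CPM, which covers counting error only. The labels were compared with marker lists. The lists include Cd8a and Itgam, the genes of the sort antigens CD8 and CD11b, so that part of the match was set by the sort. The pDC and cDC1 lists were each highest in their own subset, while the cDC2 list did not separate cDC2 from pDC. The summed level of 5 pDC markers was 10258 to 11319 CPM in pDC and at most 214 CPM in any cDC library, and 5 cDC1 markers summed to 3638 to 4071 CPM in cDC1 and 139 to 209 CPM in cDC2. The cDC1 list was also present in pDC at 572 to 698 CPM through Cd8a and Clec9a, and the 5 cDC2 markers, at 1760.2 to 1912 CPM in cDC2 and 94.6 to 158 CPM in cDC1, reached 1838 to 2003 CPM in pDC, mostly through Cd4. A list of 10 plasma cell genes, cells with a very large ER, summed to 4979 to 7999 CPM in pDC, 575 to 641 CPM in cDC1 and 606 to 731 CPM in cDC2, with none at 0 in all libraries of a subset. Most of it was immunoglobulin and J chain mRNA, while the receptor gene Tnfrsf17 reached at most 1.17 CPM. Sdc1 was also higher in pDC, at 44.1 to 49.5 CPM, than in cDC1, at 0.334 to 0.546 CPM, and cDC2, at 0.700 to 1.97 CPM. The part of plasma cell RNA in the pDC values was not tested. Lists for B, T and NK cells, neutrophils and erythroid cells stayed at or under 78.1 CPM in every library, and the macrophage or monocyte list reached 1979.9 to 2847 CPM in pDC, mostly through Ly6c2. The last list was also higher in cDC2, at 427 to 605 CPM, than in cDC1, at 96.7 to 157 CPM, with Emr1 at 308 to 389.7 and 6.88 to 17.7 CPM, and its part in the low cDC2 levels of the members was not tested. The 3 libraries numbered replicate 3 stood apart in all subsets, with the lowest totals and 4868 to 7374 CPM of immediate-early and heat-shock genes against 2005 to 4151 CPM in the other 6. Results are therefore also given without these 3 libraries, a comparison chosen after seeing the data. In bulk RNA, fewer cells of one kind and less RNA per cell cannot be told apart.

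The machinery as a whole was lowest in cDC2 and highest in pDC for most genes. Of the 59 members tested, 50 (84.7%) had their lowest mean in cDC2, against 26.2% of all genes tested, and 43 (72.9%) had their highest mean in pDC, against 40.5% of all genes. No member had its highest mean in cDC2, where 29.0% of all genes had it. Summed over the 60 members, the level was 15098, 14914 and 17255 CPM in cDC1 replicates 1, 2 and 3, 9544, 9344 and 10313 CPM in cDC2 and 16389.9, 15985 and 18672 CPM in pDC. The cDC1 and pDC libraries overlapped in this sum, and all 6 stood above the 3 cDC2 libraries. The mean sum in pDC was 1.08 times that of cDC1 and 1.75 times that of cDC2.

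**Figure D1:**
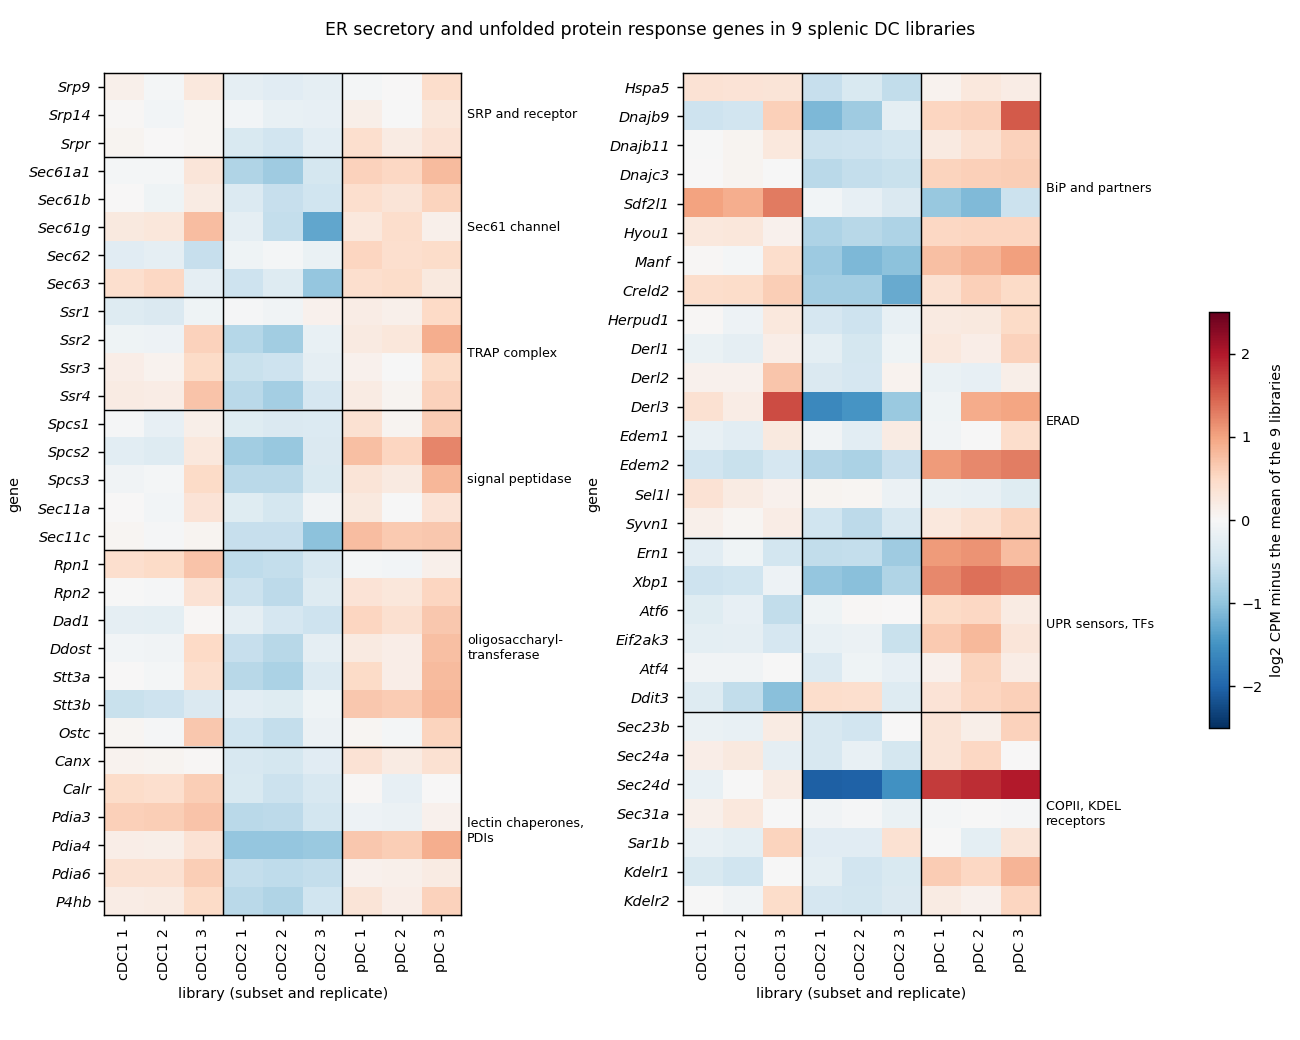
Level of each of the 59 members tested in each of the 9 libraries, as log2 CPM minus the gene's mean over the libraries (colour), with genes in rows by role and libraries in columns. The cDC2 columns are the lowest for 50 of the 59 members by subset mean, and Sdf2l1 and Sel1l are the members lowest in pDC.

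Gene by gene, the quasi-likelihood test of edgeR, with adjustment by Benjamini-Hochberg over all genes tested, called 52 of the 59 members different among the subsets (56.0% of all genes were called). The 7 others were Srp9 and Srp14, which were called only between pDC and cDC2, and Ostc, Derl2, Edem1, Sec31a and Sar1b, which passed in no comparison of subsets without the replicate block. With the replicate number as a block, Ostc passed in cDC2 against cDC1 (adjusted p = 0.00016), against cDC2 in pDC (0.00012) and against the mean of both cDC subsets (0.0042). Derl2 then passed in cDC2 against cDC1 (0.00097) and pDC against cDC1 (0.0032), Edem1 in pDC against cDC1 (0.037) and against the mean of both (0.025), and Sec31a in cDC2 against cDC1 (0.029). Against cDC2, 50 members were higher in pDC (22.5% of all genes were) and only Sdf2l1 was lower (23.3% of all genes), with a median log2 fold change of 0.89 against -0.01 over all genes. Against cDC1, 25 were higher in pDC (24.3% of all genes) and 6 lower (24.4% of all genes), with a median of 0.29 against 0.02. In cDC2 against cDC1, 31 members were lower (11.7% of all genes) and 1, Ddit3, was higher (12.7% of all genes), with a median of -0.61 against 0.03. Against the mean of both cDC subsets, 43 were higher in pDC (25.7% of all genes) and 2, Sdf2l1 and Sel1l, were lower (25.7% of all genes), with a median of 0.56 against -0.01. These comparisons share libraries and are not independent of each other.

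In 24 members every pDC library stood above all 6 cDC libraries (21.3% of all genes did), and in Sdf2l1 and Sel1l every pDC library stood below them (20% of all genes). With the replicate number as a block, 52 members were called in cDC2 against cDC1, 47 of them lower (17.1% of all genes in that fit) and 5 higher (18.5% of all genes). In the same fit 36 members were higher (29.2% of all genes) and 8 lower (29.4% of all genes) in pDC than in cDC1, and no call of the fit without the block was lost. On the 6 libraries of replicates 1 and 2 alone, 28 members were higher (31.4% of all genes in that fit) and 8 lower (31.6%) in pDC relative to cDC1. Relative to cDC2, 49 were higher (29.6%) and 2 lower (30.2%) in pDC. In cDC2 relative to cDC1, 45 were lower (19.1%) and 2 higher (18.5%). Calls that held with each of the 9 libraries left out in turn numbered 23 of 31 for pDC against cDC1, 44 of 51 for pDC against cDC2 and 22 of 32 for cDC2 against cDC1. The share of calls kept among all genes is not given, so that these numbers describe the members alone.

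**Figure D2:**
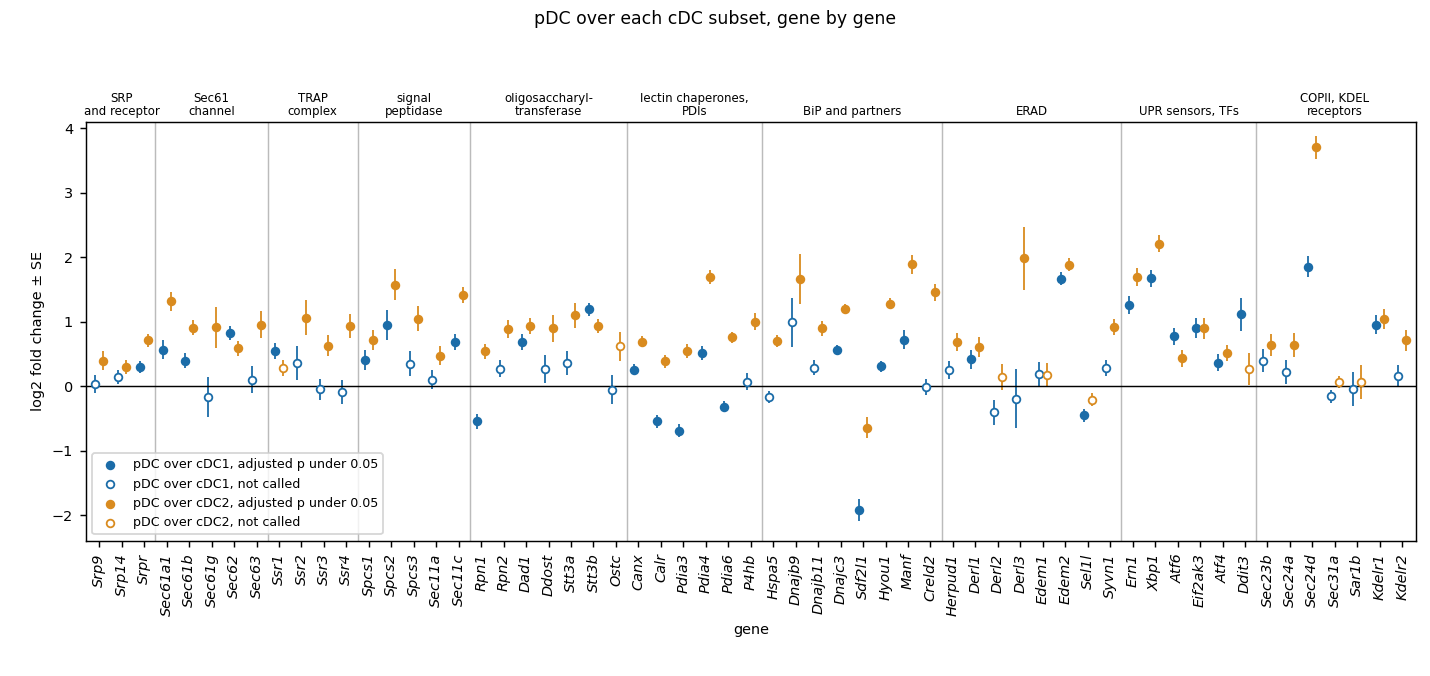
Log2 fold change (± approximate SE, from the F value of the test) of each member in pDC over cDC1 and in pDC over cDC2. Members are grouped by role, with filled points for adjusted p under 0.05. Points over cDC2 lie above 0 for nearly all members, with Sec24d highest at 3.70, while points over cDC1 lie above and below 0, from -1.92 in Sdf2l1 to 1.85 in Sec24d.

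Many ER chaperone genes carry the ER stress response element (ERSE) in their promoters, to which ATF6 and XBP1 can bind together with NF-Y. The 250 bases before each gene's start, from RefSeq on GRCm38.p6, were searched on both strands for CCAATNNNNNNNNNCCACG, for the related ERSE-II (ATTGGNCCACG) and for the core of the unfolded protein response element, UPRE (TGACGTG). A sequence was matched for 50 of the 60 members, which is all except Sec61a1, Ssr2, Spcs3, Sec11c, Ostc, Hyou1, Manf, Derl1, Atf6 and Kdelr2. The ERSE was found in 8 of 50 members (16%) and in 35 of 27025 genes (0.13%), the ERSE-II in 1 member (10 genes, 0.037%) and the UPRE core in 3 members, Hspa5, Sec24d and Srpr (499 genes, 1.85%). The 8 ERSE matches lay between 162 and 26 bases before the start, and no match overlapped that of another motif. A match is a description of the letters and was not tested as a binding site. The 8 ERSE stretches are shown because the element is known from the unfolded protein response and all 8 genes were low in cDC2, as were most members, with the Herpud1 ERSE-II and the Sec24d UPRE core beside them. Capitals mark the fixed bases of the motif, each stretch reads 5′ to 3′ on the strand of its gene, and the motif appears as CGTGG and ATTGG where it lies on the other strand. The Hspa5 and Sec24d stretches are shown with shorter flanks because they touch an exon annotated in GENCODE.
Hspa5, chr2:34772020-34772048, plus strand: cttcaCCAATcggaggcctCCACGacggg
Calr, chr8:84847055-84847113, minus strand: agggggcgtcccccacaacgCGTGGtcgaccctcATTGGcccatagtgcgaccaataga
Canx, chr11:50325780-50325838, minus strand: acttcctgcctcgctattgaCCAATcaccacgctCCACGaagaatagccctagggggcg
Pdia6, chr12:17266471-17266529, plus strand: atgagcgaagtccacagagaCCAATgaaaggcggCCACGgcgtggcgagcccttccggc
Dnajc3, chr14:118937807-118937865, plus strand: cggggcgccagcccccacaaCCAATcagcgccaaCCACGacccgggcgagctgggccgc
Creld2, chr15:88819500-88819558, plus strand: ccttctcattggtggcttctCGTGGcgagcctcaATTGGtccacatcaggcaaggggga
Derl3, chr10:75893222-75893280, plus strand: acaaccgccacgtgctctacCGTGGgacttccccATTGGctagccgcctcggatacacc
Syvn1, chr19:6046512-6046570, plus strand: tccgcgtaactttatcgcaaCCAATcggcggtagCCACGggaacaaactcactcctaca
Herpud1, chr8:94386357-94386407, plus strand: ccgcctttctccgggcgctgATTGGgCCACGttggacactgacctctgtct
Sec24d, chr3:123267465-123267481, plus strand: gcgccTGACGTGgcact

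All 8 genes with an ERSE were lower in cDC2 than in cDC1 (11.7% of all genes were), with a median log2 fold change of -0.90. All 8 were higher in pDC than in cDC2 (22.5% of all genes were), with a median of 0.84. Between pDC and cDC1 they were divided, with 2 higher (24.3% of all genes), 2 lower (24.4% of all genes) and 4 not called, and a median of -0.09. Of the 41 other tested members with a promoter sequence, 17 were lower and 1 higher in cDC2 than in cDC1 (median -0.43), 33 were higher and 1 lower in pDC than in cDC2 (median 0.71), and 17 were higher and 4 lower in pDC than in cDC1 (median 0.29). These 41 stand against the same shares of all genes and include Herpud1, Sec24d and Srpr, which matched the ERSE-II or the UPRE core. The motifs were looked up with the expression values known, in members that had been chosen as genes of this pathway. The difference between these groups of genes was not tested.

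The counts by role from here on, where no replicate block is named, stand against the same shares of all genes. These were 24.3% higher and 24.4% lower in pDC against cDC1, and 22.5% higher and 23.3% lower in pDC against cDC2. In cDC2 against cDC1 they were 12.7% higher and 11.7% lower. Counts by role with the replicate block stand against the shares of that fit. Those were 29.2% higher and 29.4% lower in pDC against cDC1, and 18.5% higher and 17.1% lower in cDC2 against cDC1. The 6 sensors and transcription factors of the unfolded protein response were all higher in pDC than in cDC1, with a median log2 fold change of 1.01, and 5 of 6 were higher in pDC than in cDC2. Between the cDC subsets, Xbp1 was lower and Ddit3 higher in cDC2 than in cDC1, with a median of -0.07 over the 6, and with the replicate block Ern1 was lower and Atf6 higher as well. Xbp1 (ENSMUSG00000020484, chr11:5520659-5525893 on the plus strand in GRCm38) encodes the transcription factor that IRE1α activates by splicing and that drives genes of the secretory pathway. It stood at 100.1, 102 and 132 CPM in cDC1, 73.9, 70.1 and 86.1 CPM in cDC2 and 333, 373 and 357 CPM in pDC. Every pDC library was above every cDC library, and the cDC1 libraries were above those of cDC2. The log2 fold change was 1.67 ± 0.13 (adjusted p = 5.4e-06) in pDC against cDC1, 2.21 ± 0.14 (adjusted p = 1.1e-06) in pDC against cDC2 and -0.54 ± 0.13 (adjusted p = 0.014) in cDC2 against cDC1. The last of these calls was lost without cDC2 replicate 1 or cDC2 replicate 2 (highest adjusted p = 0.058).

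Ern1 (ENSMUSG00000020715, chr11:106394650-106487852 on the minus strand) encodes the sensor IRE1α, a kinase and endoribonuclease of the ER membrane. Its level was 78.2, 86.6 and 68.5 CPM in cDC1, 61, 62.1 and 50.5 CPM in cDC2 and 196, 204 and 159 CPM in pDC. The pDC libraries formed a separate upper group and the cDC1 libraries again lay above those of cDC2. It was higher in pDC by 1.26 ± 0.14 (adjusted p = 5.1e-05) on the log2 scale against cDC1 and by 1.69 ± 0.14 (adjusted p = 8.3e-06) against cDC2, and the difference of cDC2 from cDC1 was -0.43 ± 0.14 (adjusted p = 0.052, or 0.00091 with the replicate block).

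Atf6 (ENSMUSG00000026663, chr1:170704674-170867771 on the minus strand) encodes the sensor that travels to the Golgi to be cut. Atf6 was at 142, 152 and 114 CPM in cDC1, 163, 178 and 175 CPM in cDC2 and 243, 251 and 202 CPM in pDC. Here cDC1 was the lowest subset, with no overlap among the 3. On the log2 scale the change was 0.77 ± 0.13 (adjusted p = 0.00081) in pDC against cDC1, 0.43 ± 0.13 (adjusted p = 0.021) in pDC against cDC2 and 0.34 ± 0.13 (adjusted p = 0.089, or 0.015 with the replicate block) in cDC2 against cDC1. The call against cDC2 did not hold without any 1 of 4 libraries, namely cDC2 replicate 1 or 3, or pDC replicate 1 or 2 (highest adjusted p = 0.078).

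Eif2ak3 (ENSMUSG00000031668, chr6:70844515-70905245 on the plus strand) encodes PERK, which phosphorylates the initiation factor eIF2α. Eif2ak3 was at 52.1, 52.9 and 46.2 CPM in cDC1, 54, 55.8 and 41.7 CPM in cDC2 and 97, 108 and 76.2 CPM in pDC. The pDC libraries were all above the cDC libraries, which overlapped. In pDC it was higher by 0.90 ± 0.16 (adjusted p = 0.0011) than in cDC1 and by 0.89 ± 0.16 (adjusted p = 0.0012) than in cDC2 on the log2 scale, and cDC2 against cDC1 gave 0.00 ± 0.16 (adjusted p = 0.99).

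Atf4 (ENSMUSG00000042406, chr15:80255184-80257541 on the plus strand), the transcription factor whose translation rises when PERK is active, had the smallest differences of the 6 between pDC and cDC1. It stood at 148, 148 and 155 CPM in cDC1, 124, 146 and 136 CPM in cDC2 and 169, 232 and 179 CPM in pDC. The pDC libraries were above all others, and the cDC1 libraries above those of cDC2. Its log2 fold change was 0.36 ± 0.13 (adjusted p = 0.041) against cDC1 and 0.51 ± 0.13 (adjusted p = 0.00904) against cDC2, and the first call was lost in 7 of the 9 fits with a library left out, all except those without pDC replicate 1 or pDC replicate 3 (highest adjusted p = 0.19).

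Ddit3 (ENSMUSG00000025408, chr10:127290774-127296288 on the plus strand) encodes CHOP, a pro-apoptotic factor downstream of ATF4. It was weakly expressed, at 7.58, 6.26 and 4.6 CPM in cDC1, 13, 12.7 and 7.6 CPM in cDC2 and 12, 13.8 and 14.4 CPM in pDC. The cDC1 libraries were the lowest and those of cDC2 and pDC overlapped. Ddit3 had a log2 fold change of 1.11 ± 0.26 (adjusted p = 0.0054) in pDC against cDC1, 0.27 ± 0.25 (adjusted p = 0.43) in pDC against cDC2 and 0.85 ± 0.26 (adjusted p = 0.039) in cDC2 against cDC1. The call between the cDC subsets was lost without any 1 of 6 libraries, namely cDC1 replicate 2 or 3, cDC2 replicate 1 or 2, or pDC replicate 1 or 2 (highest adjusted p = 0.14), and the call of pDC against the mean of both cDC subsets, 0.69 ± 0.22 (adjusted p = 0.023), was lost without pDC replicate 2 or pDC replicate 3 (highest adjusted p = 0.075).

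Hspa5 (ENSMUSG00000026864, chr2:34771970-34777547 on the plus strand), the chaperone BiP and the classical target of ATF6, had another order of subsets than the sensors. It stood at 1711, 1674 and 1668 CPM in cDC1, 895, 1022 and 863 CPM in cDC2 and 1406, 1586 and 1507 CPM in pDC. All cDC1 libraries were above all pDC libraries, and these above all cDC2 libraries. The log2 fold change was -0.17 ± 0.09 (adjusted p = 0.15, or 0.045 with the replicate block) in pDC against cDC1, 0.69 ± 0.09 (adjusted p = 0.00016) in pDC against cDC2 and -0.86 ± 0.09 (adjusted p = 0.000103) in cDC2 against cDC1. Against the mean of both cDC subsets it was 0.26 ± 0.08 (adjusted p = 0.017), a call lost without pDC replicate 2 (highest adjusted p = 0.084).

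**Figure D3:**
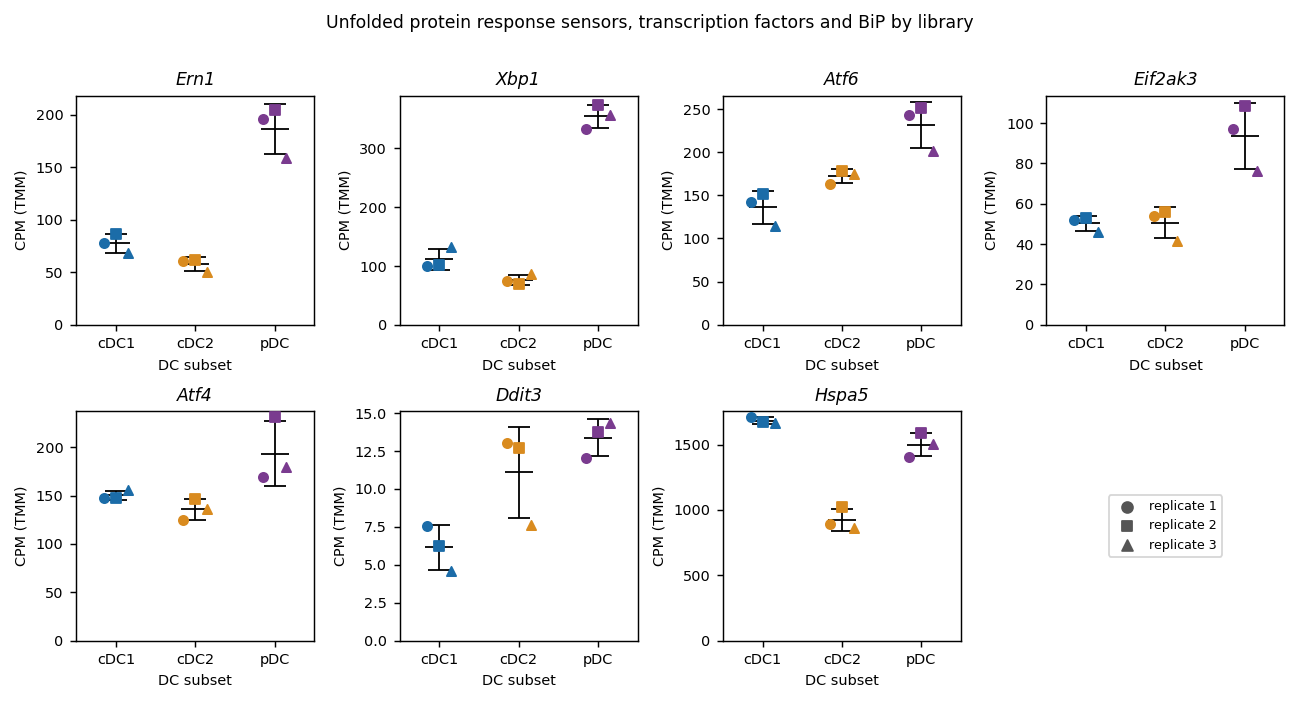
Level (CPM) of the 3 sensors, the 3 transcription factors and Hspa5 in each library, by subset, with points for libraries and the mean ± SD (n = 3). The pDC points lie above all cDC points for Ern1, Xbp1, Atf6, Eif2ak3 and Atf4, and between the cDC1 and cDC2 points for Hspa5.

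New chains are brought to the membrane by the signal recognition particle. Its Srp9 and Srp14 were higher in pDC than in cDC2, at 0.39 ± 0.14 (adjusted p = 0.049) and 0.29 ± 0.10 (adjusted p = 0.042), and each of these calls was lost in 8 of the 9 fits with a library left out (highest adjusted p = 0.13 and 0.11). With the replicate block Srp9 was also lower in cDC2 than in cDC1 (adjusted p = 0.024) and Srp14 higher in pDC than the mean of both cDC subsets (0.0196). Srp54a had 1 count in all 9 libraries together and was not tested. In its exons, 73.35% of windows of 75 bases also occur in Srp54b or Srp54c, so that its count is uncertain. Srpr, the receptor's alpha subunit, stood at 147, 141 and 145 CPM in cDC1, 107, 101 and 118 CPM in cDC2 and 189, 162 and 180.0 CPM in pDC. The 3 subsets did not overlap, with pDC highest and cDC2 lowest. Srpr had a log2 fold change of 0.30 ± 0.10 (adjusted p = 0.032) in pDC against cDC1, 0.71 ± 0.10 (adjusted p = 0.00027) in pDC against cDC2 and -0.41 ± 0.10 (adjusted p = 0.013) in cDC2 against cDC1. The first of these was lost without any 1 of 6 libraries, namely any cDC1 replicate, cDC2 replicate 1, or pDC replicate 1 or 3 (highest adjusted p = 0.11), and the last without cDC1 replicate 1 or cDC2 replicate 1 (highest adjusted p = 0.053).

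All 5 genes of the Sec61 channel and its partners were higher in pDC than in cDC2 (median 0.91), 3 were higher in pDC than in cDC1 (median 0.40), and 4 were lower in cDC2 than in cDC1 (median -0.75). Sec61a1, the pore itself, was at 317, 316 and 402 CPM in cDC1, 195, 176 and 242 CPM in cDC2 and 489, 469.9 and 566 CPM in pDC. The order pDC, cDC1, cDC2 held without overlap. On the log2 scale Sec61a1 gave 0.56 ± 0.15 (adjusted p = 0.0104) for pDC against cDC1, 1.31 ± 0.15 (adjusted p = 6.4e-05) for pDC against cDC2 and -0.75 ± 0.15 (adjusted p = 0.0044) for cDC2 against cDC1. Sec62, which with Sec63 helps chains to enter after their synthesis, had another order, at 80.4, 83.2 and 65.8 CPM in cDC1, 90.1, 94.7 and 86.7 CPM in cDC2 and 141, 131 and 134 CPM in pDC. Its cDC1 libraries were the lowest, and pDC was again above all others. For Sec62 the log2 fold change was 0.83 ± 0.11 (adjusted p = 0.00018) against cDC1 and 0.58 ± 0.11 (adjusted p = 0.0018) against cDC2, with 0.24 ± 0.11 (adjusted p = 0.15, or 0.048 with the replicate block) for cDC2 against cDC1. Some sequence is shared with other genes or pseudogenes in Sec61a1 (13.07% of windows), Sec61b (23.88%), Sec61g (19.35%) and Sec62 (11.2%), so that their counts are less certain. The same holds for Srp9 (13.84%) and Srpr (11.27%) above and for Spcs1 (15.95%) of the signal peptidase genes below.

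The translocon-associated protein complex (TRAP) helps some chains into the channel. Of its 4 genes, 3 were higher in pDC than in cDC2 (median 0.78). In cDC2 against cDC1, 2 were lower, or 3 lower and 1 higher with the replicate block. Against cDC1, 1, Ssr1, was higher in pDC (median 0.15), a share near the 24.3% of all genes. With the replicate block, 2 were higher in pDC than in cDC1. Ssr2 stood at 133, 129.9 and 214 CPM in cDC1, 87.1, 78.3 and 126 CPM in cDC2 and 167, 173 and 268 CPM in pDC. The replicate 3 library was the highest of each subset, the pDC and cDC1 libraries overlapped, and all cDC2 libraries stood below them. Ssr2 gave 0.35 ± 0.26 (adjusted p = 0.305, or 0.0014 with the replicate block) for pDC against cDC1, 1.06 ± 0.27 (adjusted p = 0.0089) for pDC against cDC2 and -0.71 ± 0.27 (adjusted p = 0.085, or 5.1e-05 with the replicate block) for cDC2 against cDC1 on the log2 scale. Against the mean of both cDC subsets it was 0.71 ± 0.22 (adjusted p = 0.024), lost without cDC1 replicate 1 or cDC2 replicate 1 or pDC replicate 3 (highest adjusted p = 0.12). Ssr4 stood at 151, 148 and 212 CPM in cDC1, 81.7, 72.4 and 97.4 CPM in cDC2 and 149, 137 and 195 CPM in pDC. Its pDC and cDC1 libraries overlapped, all above cDC2. The log2 fold change of Ssr4 was -0.09 ± 0.19 (adjusted p = 0.73) in pDC against cDC1, 0.94 ± 0.19 (adjusted p = 0.0026) in pDC against cDC2 and -1.02 ± 0.19 (adjusted p = 0.0032) in cDC2 against cDC1. Against the mean of both it was 0.42 ± 0.16 (adjusted p = 0.049), lost without any 1 of 6 libraries, namely cDC1 replicate 1 or 2, cDC2 replicate 1 or 2, or pDC replicate 1 or 3 (highest adjusted p = 0.21).

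Signal peptidase removes the signal sequence. All 5 of its genes were higher in pDC than in cDC2 (median 1.05) and 3 were higher than in cDC1 (median 0.41), while 2 were lower in cDC2 than in cDC1, or 5 with the replicate block. Spcs2, a noncatalytic subunit, stood at 144, 138 and 207 CPM in cDC1, 94.1, 88.7 and 134 CPM in cDC2 and 288, 251 and 402 CPM in pDC. The subsets did not overlap, and the replicate 3 library was the highest in each. Spcs2 was higher in pDC by 0.95 ± 0.23 (adjusted p = 0.0072) than in cDC1 and by 1.57 ± 0.24 (adjusted p = 0.00041) than in cDC2 on the log2 scale, and cDC2 against cDC1 was -0.63 ± 0.23 (adjusted p = 0.08, or 5.8e-05 with the replicate block). Sec11c, 1 of the 2 alternative catalytic subunits, was at 198, 187 and 199.6 CPM in cDC1, 129, 128 and 94 CPM in cDC2 and 328, 303 and 305 CPM in pDC. Again pDC was highest and cDC2 lowest without overlap. Sec11c gave 0.68 ± 0.13 (adjusted p = 0.0015), 1.41 ± 0.13 (adjusted p = 1.4e-05) and -0.73 ± 0.13 (adjusted p = 0.0022) for pDC over cDC1, pDC over cDC2 and cDC2 over cDC1. The other catalytic subunit, Sec11a, was not called between pDC and cDC1, at 0.10 ± 0.15 (adjusted p = 0.62).

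The oligosaccharyltransferase attaches N-glycans. Of its 7 genes, 6 were higher in pDC than in cDC2 (median 0.89), and 3 were lower in cDC2 than in cDC1. Against cDC1, 2 were higher in pDC (28.6%, near the 24.3% of all genes) and 1 lower (14.3%), with a median of 0.27. With the replicate block there were 5 higher and 1 lower in pDC relative to cDC1, and 5 lower and 1 higher in cDC2 than in cDC1. Stt3b, the catalytic subunit that can act after a chain has been made, was at 130.3, 134 and 149 CPM in cDC1, 159, 155 and 179 CPM in cDC2 and 304, 296 and 340.3 CPM in pDC. The pDC libraries were far above the rest and the cDC1 libraries were the lowest. Stt3b was higher in pDC by 1.19 ± 0.10 (adjusted p = 9.6e-06) and 0.93 ± 0.10 (adjusted p = 5.6e-05) on the log2 scale than in cDC1 and in cDC2, and cDC2 against cDC1 was 0.26 ± 0.10 (adjusted p = 0.104, or 0.0071 with the replicate block). Dad1, a small subunit needed for cell survival, was at 77.8, 76.7 and 93 CPM in cDC1, 78, 68 and 64 CPM in cDC2 and 133, 121 and 145 CPM in pDC. The pDC libraries were above all cDC libraries, which overlapped. Its log2 fold change was 0.69 ± 0.12 (adjusted p = 0.0013) against cDC1 and 0.93 ± 0.13 (adjusted p = 0.00021) against cDC2. Rpn1, which presents substrates to the enzyme, was named after its values were seen as the member of the group lower in pDC than in cDC1. It stood at 359.5, 372 and 440.1 CPM in cDC1, 173, 176 and 203 CPM in cDC2 and 258, 253 and 292 CPM in pDC. All cDC1 libraries were above all pDC libraries and these above all cDC2 libraries, with -0.54 ± 0.11 (adjusted p = 0.0031) for pDC against cDC1 and -1.09 ± 0.12 (adjusted p = 0.00011) for cDC2 against cDC1.

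The lectin chaperones, which hold glycoproteins while they fold, and the disulfide isomerases, which form and shuffle disulfide bonds, were low in cDC2 throughout. All 6 were lower in cDC2 than in cDC1 (median -1.0) and all 6 were higher in pDC than in cDC2 (median 0.72), but against cDC1 pDC had 2 higher and 3 lower (median -0.13). Pdia4, an isomerase with extra thioredoxin-like domains, was at 185, 184 and 212 CPM in cDC1, 84.3, 84.3 and 87.3 CPM in cDC2 and 264, 254 and 309.6 CPM in pDC. All pDC libraries were above all cDC1 libraries and these above all cDC2 libraries. Pdia4 gave 0.51 ± 0.11 (adjusted p = 0.0028), 1.69 ± 0.11 (adjusted p = 1.3e-06) and -1.18 ± 0.11 (adjusted p = 4.5e-05) on the log2 scale for pDC over cDC1, pDC over cDC2 and cDC2 over cDC1. P4hb, the classical protein disulfide isomerase, was at 859, 869 and 1058 CPM in cDC1, 475, 449.7 and 539 CPM in cDC2 and 945, 853 and 1122 CPM in pDC. Its pDC and cDC1 libraries overlapped and all were above cDC2, with 0.07 ± 0.13 (adjusted p = 0.702), 1.0 ± 0.13 (adjusted p = 0.00018) and -0.93 ± 0.13 (adjusted p = 0.00068) for the same comparisons.

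Calr, Pdia3 and Pdia6 were the 3 genes of the group lower in pDC than in cDC1 and were named after their values were seen. Calreticulin (Calr) and its partner ERp57 (Pdia3) fold glycoproteins and belong to the complex that loads peptides on MHC class I. Calr stood at 1843, 1779.8 and 2048 CPM in cDC1, 1031, 921 and 1016 CPM in cDC2 and 1373, 1156 and 1348 CPM in pDC, and Pdia3 at 1667, 1698 and 1826 CPM in cDC1, 691, 707 and 809 CPM in cDC2 and 1017, 1006 and 1195 CPM in pDC. In both, all cDC1 libraries were highest and all cDC2 libraries lowest, with pDC between them. The log2 fold change of Calr was -0.55 ± 0.10 (adjusted p = 0.0013) in pDC against cDC1 and -0.93 ± 0.10 (adjusted p = 0.00011) in cDC2 against cDC1, and that of Pdia3 was -0.69 ± 0.10 (adjusted p = 0.00034) and -1.23 ± 0.10 (adjusted p = 2.7e-05). Pdia6 kept this order with a smaller gap, -0.32 ± 0.09 (adjusted p = 0.015) for pDC against cDC1, and that call was lost without pDC replicate 1 (highest adjusted p = 0.051). Calnexin (Canx), the membrane-bound relative of Calr, went the other way between pDC and cDC1, at 0.25 ± 0.09 (adjusted p = 0.036), though its call was lost in 8 of the 9 fits with a library left out, all except those without pDC replicate 2 (highest adjusted p = 0.14).

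Among BiP, its co-chaperones and the other soluble ER stress proteins, 7 of 8 were higher and 1 lower in pDC than in cDC2 (median 1.24), and 7 were lower in cDC2 than in cDC1 (median -0.91). Against cDC1, 3 were higher and 1 lower in pDC (median 0.30), or 5 and 2 with the replicate block. Manf, a secreted protein that binds BiP and is induced by ER stress, was at 151, 143 and 201 CPM in cDC1, 79.3, 68.2 and 72.7 CPM in cDC2 and 249, 265 and 302 CPM in pDC. The 3 subsets were separate, with cDC2 lowest. Its log2 fold change was 0.72 ± 0.14 (adjusted p = 0.0023) in pDC against cDC1, 1.89 ± 0.15 (adjusted p = 4.9e-06) in pDC against cDC2 and -1.17 ± 0.15 (adjusted p = 0.00029) in cDC2 against cDC1. Dnajb9, a BiP co-chaperone that restrains IRE1α, was at 32.9, 33.8 and 71.1 CPM in cDC1, 21.5, 25.2 and 39.6 CPM in cDC2 and 68.1, 69.7 and 135 CPM in pDC. The replicate 3 library was the highest in each subset, so that cDC1 replicate 3 lay above pDC replicates 1 and 2. Dnajb9 gave 0.99 ± 0.38 (adjusted p = 0.056, or 2e-05 with the replicate block) for pDC against cDC1, 1.66 ± 0.39 (adjusted p = 0.0058) for pDC against cDC2 and -0.67 ± 0.38 (adjusted p = 0.25, or 0.00092 with the replicate block) for cDC2 against cDC1.

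Creld2, another ER stress protein, was at 102, 104 and 116 CPM in cDC1, 42.4, 42.1 and 31.9 CPM in cDC2 and 98.8, 115 and 106 CPM in pDC. The pDC and cDC1 libraries overlapped, and cDC2 was well below them. Creld2 gave -1.47 ± 0.13 (adjusted p = 4.5e-05) for cDC2 against cDC1, 1.46 ± 0.13 (adjusted p = 1.5e-05) for pDC against cDC2 and -0.01 ± 0.13 (adjusted p = 0.94) for pDC against cDC1. Sdf2l1, a component of an ER chaperone complex with BiP co-chaperones, was named after its values were seen, as the member with the largest fall in pDC. It stood at 227, 213 and 278 CPM in cDC1, 109, 98.6 and 88.9 CPM in cDC2 and 59.2, 52.8 and 77.7 CPM in pDC. Its order was cDC1, cDC2, pDC without overlap, which no other member of the group had. Sdf2l1 had a log2 fold change of -1.92 ± 0.17 (adjusted p = 9.5e-06) in pDC against cDC1, -0.64 ± 0.16 (adjusted p = 0.0093) in pDC against cDC2 and -1.28 ± 0.17 (adjusted p = 0.00037) in cDC2 against cDC1.

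ER-associated degradation returns misfolded proteins to the cytosol. Of its 8 genes, 5 were higher in pDC than in cDC2 (median 0.64), and 3 were lower in cDC2 than in cDC1 (median -0.34). Against cDC1, 2 were higher in pDC, a share near the 24.3% of all genes (median 0.22). In the same comparison 1 was lower, where 24.4% of all genes were. With the replicate block, 7 were lower in cDC2, and 5 were higher and 2 lower in pDC than in cDC1. Edem2, which trims mannose from glycoproteins and so marks them for degradation, was at 115, 109 and 119.9 CPM in cDC1, 96.2, 92.7 and 107 CPM in cDC2 and 335, 368 and 387 CPM in pDC. The pDC libraries were far above all cDC libraries, and the cDC1 libraries just above those of cDC2. It was higher in pDC by 1.67 ± 0.10 (adjusted p = 9.2e-07) than in cDC1 and by 1.88 ± 0.10 (adjusted p = 4.4e-07) than in cDC2 on the log2 scale, and cDC2 against cDC1 was -0.22 ± 0.10 (adjusted p = 0.15, or 0.03 with the replicate block). Edem1, its relative, gave 0.19 ± 0.19 (adjusted p = 0.45, or 0.037 with the replicate block) for pDC against cDC1 and 0.18 ± 0.16 (adjusted p = 0.39, or 0.025 with the replicate block) for pDC against the mean of both cDC subsets.

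Syvn1, the ubiquitin ligase HRD1 at the centre of the pathway, was at 41.6, 39.3 and 43.7 CPM in cDC1, 27, 24.3 and 29 CPM in cDC2 and 45.8, 49.9 and 56.1 CPM in pDC. The subsets were in the order pDC, cDC1, cDC2 without overlap. Syvn1 gave 0.28 ± 0.12 (adjusted p = 0.077, or 0.025 with the replicate block) for pDC against cDC1, 0.92 ± 0.12 (adjusted p = 0.00017) for pDC against cDC2 and -0.64 ± 0.12 (adjusted p = 0.0037) for cDC2 against cDC1. Sel1l, the adaptor of HRD1, was named after its values were seen, as a member lower in pDC. Sel1l stood at 165, 148 and 138 CPM in cDC1, 133, 132 and 116 CPM in cDC2 and 114, 112 and 104 CPM in pDC. Its pDC libraries were the lowest and its cDC1 libraries the highest, with -0.45 ± 0.10 (adjusted p = 0.0051) in pDC against cDC1, -0.21 ± 0.10 (adjusted p = 0.13, or 0.02 with the replicate block) in pDC against cDC2 and -0.33 ± 0.09 (adjusted p = 0.012) against the mean of both cDC subsets. Derl3, a derlin prominent in secretory cells, was weakly expressed at 3.68, 3.21 and 8.67 CPM in cDC1, 0.924, 1.02 and 1.49 CPM in cDC2 and 2.6, 5.32 and 5.6 CPM in pDC. The cDC2 libraries were the lowest and the others overlapped. It gave -0.20 ± 0.46 (adjusted p = 0.75), 1.98 ± 0.49 (adjusted p = 0.0078) and -2.18 ± 0.49 (adjusted p = 0.0092) for pDC over cDC1, pDC over cDC2 and cDC2 over cDC1.

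The COPII coat packs cargo that leaves the ER, and KDEL receptors bring escaped ER proteins back. Of 7 genes, 5 were higher in pDC than in cDC2 (median 0.63), and 2 were lower in cDC2 than in cDC1 (median -0.24), or 5 with the replicate block. Against cDC1, 2 were higher in pDC (28.6%, near the 24.3% of all genes), with a median of 0.22. Sec24d (ENSMUSG00000039234, chr3:123267455-123365641 on the plus strand), a cargo-binding subunit of the coat, had the largest difference of all members between pDC and cDC2. It stood at 47.8, 53.6 and 62.4 CPM in cDC1, 13.2, 13.4 and 18.9 CPM in cDC2 and 183, 194 and 214 CPM in pDC. No subset overlapped another, with pDC far above cDC1 and cDC1 far above cDC2. For Sec24d the log2 fold change was 1.85 ± 0.16 (adjusted p = 1e-05) in pDC against cDC1, 3.70 ± 0.18 (adjusted p = 2.3e-07) in pDC against cDC2 and -1.85 ± 0.17 (adjusted p = 4.3e-05) in cDC2 against cDC1. Kdelr1 was at 94.3, 86.5 and 122 CPM in cDC1, 103, 87.3 and 94 CPM in cDC2 and 189.5, 174 and 222 CPM in pDC. All pDC libraries were above all cDC libraries, which overlapped. Kdelr1 was higher by 0.95 ± 0.15 (adjusted p = 0.00051) than in cDC1 and by 1.04 ± 0.15 (adjusted p = 0.00031) than in cDC2 on the log2 scale. Kdelr2 was higher in pDC than in cDC2, at 0.71 ± 0.17 (adjusted p = 0.0058), and gave 0.15 ± 0.16 (adjusted p = 0.47) against cDC1.

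**Figure D4:**
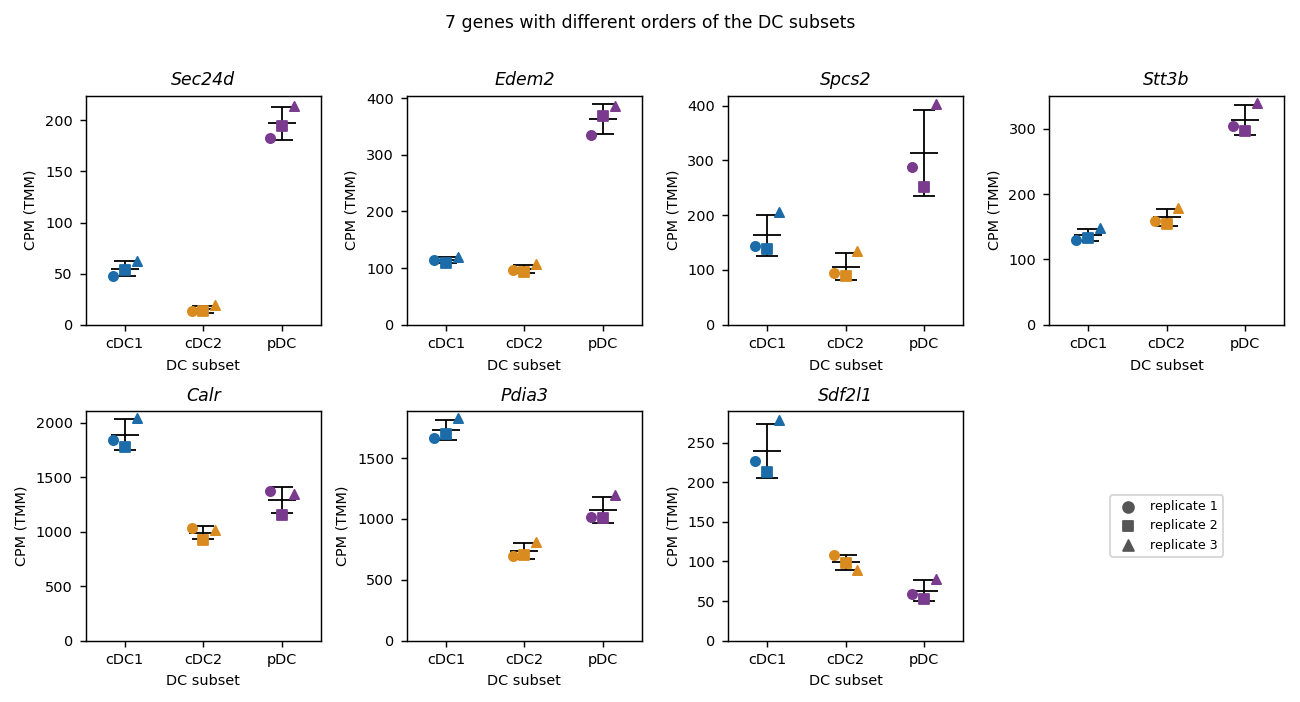
Level (CPM) of 7 members in each library, by subset, with points for libraries and the mean ± SD (n = 3). Sec24d, Edem2, Spcs2 and Stt3b are highest in pDC, Calr and Pdia3 are highest in cDC1 with pDC between cDC1 and cDC2, and Sdf2l1 falls from cDC1 to cDC2 to pDC.

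Summed by role, every pDC library stood above all cDC libraries in 5 groups: the Sec61 channel, signal peptidase, ER-associated degradation, the sensors and transcription factors, and the COPII coat with the KDEL receptors. The Sec61 channel group summed to 666 to 699.8 CPM in cDC1, 439 to 468 CPM in cDC2 and 901 to 1003 CPM in pDC. Signal peptidase summed to 736 to 976 CPM in cDC1, 511 to 579 CPM in cDC2 and 1037 to 1418 CPM in pDC. The lectin chaperones and disulfide isomerases, the most abundant group, summed to 5587 to 6271 CPM in cDC1, 2793 to 3134 CPM in cDC2 and 4291 to 5091 CPM in pDC. The cDC1 sum of this last group was above pDC in all 3 libraries, the only group of which that held. The sensors and transcription factors summed to 521 to 547 CPM in cDC1, 489.7 to 525 CPM in cDC2 and 987 to 1183 CPM in pDC. These sums weigh each gene by its abundance, and no test was run on them.

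**Figure D5:**
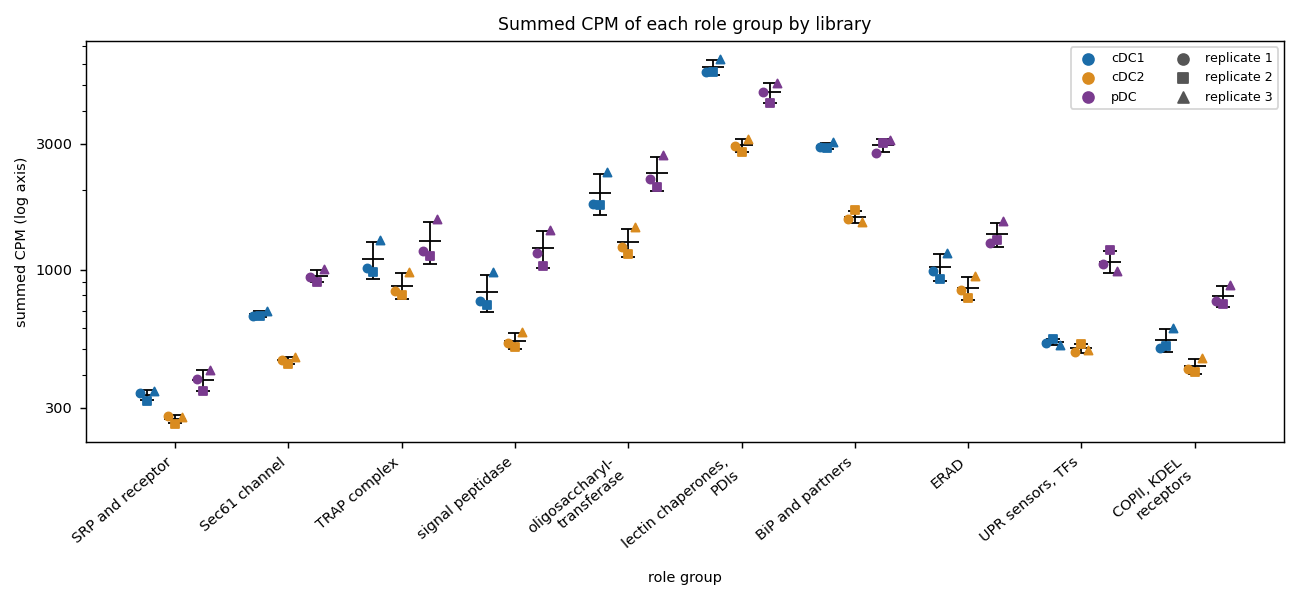
Summed level (CPM, log axis) of the members in each of the 10 role groups, with a point for each library and the mean ± SD (n = 3) per subset. The cDC2 points are the lowest in most groups, and in the sensors and transcription factors the pDC points stand above both cDC subsets.

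Levels between genes can be compared only per length of exon. On that scale Calr, Pdia3, Hspa5 and P4hb were the most abundant members in every subset. Their mean levels were 656, 551, 398 and 325 CPM per kb in cDC1, and 449, 342, 355 and 340.3 CPM per kb in pDC. In cDC2 the same genes were at 343, 234, 219 and 171 CPM per kb. Apart from Srp54a, the least abundant in each subset were Sec24a, Sec61g and Derl3, all under 3 CPM per kb.

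Part of the machinery also moved with the replicate number. In a fit with terms for subset and number, 26 members were higher (10.9% of all genes were) and 3 lower (12.1% of all genes) in replicate 3 than in replicates 1 and 2, with a median log2 difference of 0.21 against -0.01 over all genes. All 4 TRAP genes and 6 of 7 oligosaccharyltransferase genes were among those higher. Dnajb9 had the largest, 0.95 ± 0.08 (adjusted p = 0.00021), with 1.09, 0.76 and 0.97 in cDC1, cDC2 and pDC. Ssr2 followed with 0.66 ± 0.06 (adjusted p = 0.00021). The 3 lower were Sec63 at -0.47 ± 0.09 (adjusted p = 0.00803), Ern1 at -0.29 ± 0.06 (adjusted p = 0.0069) and Eif2ak3 at -0.34 ± 0.07 (adjusted p = 0.012), and each was lower in all 3 subsets. The part of the immediate-early and heat-shock transcripts, which were higher in the same 3 libraries, was not tested.

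Other genes of the pathway, a list of 81 symbols of which 80 were found and 77 tested, followed the members. Between pDC and cDC2, 50 were higher (64.9%, against 22.5% of all genes) and 5 lower (6.49%, against 23.3%) in pDC (median 0.63). Between pDC and cDC1, 34 were higher (44.2%, against 24.3%) and 11 lower (14.3%, against 24.4%) in pDC (median 0.26). In cDC2 against cDC1, 1 was higher (1.3%, against 12.7%) and 29 lower (37.7%, against 11.7%), with a median of -0.30. Of the 20 further folding factors, 18 were higher in pDC relative to cDC2, and 14 were lower in cDC2 relative to cDC1. Nucb2, a calcium-binding protein, was at 67.8, 77.6 and 50.7 CPM in cDC1, 20.7, 24.9 and 18.3 CPM in cDC2 and 673, 802 and 548 CPM in pDC. The pDC libraries were far above all others, and the cDC1 libraries were above those of cDC2. It was higher in pDC than the mean of both cDC subsets by 4.17 ± 0.16 (adjusted p = 4.1e-08) on the log2 scale.

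Mzb1, a chaperone of immunoglobulin assembly known in B cells and pDC, was at 1.49, 0.626 and 1.56 CPM in cDC1, 1.98, 1.47 and 0.85 CPM in cDC2 and 147, 144 and 228 CPM in pDC. All pDC libraries were far above the cDC libraries, with 7.01 ± 0.29 (adjusted p = 5.3e-08) against the mean of both, though 74.94% of its windows of sequence also occur in Spata24. Bhlha15, which encodes the secretory cell factor MIST1, was at 0.182, 0.25 and 0.271 CPM in cDC1, 0.446, 0.28 and 0 CPM in cDC2 and 25.1, 27.5 and 27.4 CPM in pDC. The cDC2 replicate 3 library had no count, and the other cDC libraries were near the floor. Its fitted log2 fold change against the mean of both cDC subsets was 6.72 ± 0.39 (adjusted p = 4.9e-07) and depends on how such low counts are treated. Both genes are also expressed by plasma cells, whose marker list was higher in the same libraries, and the part of such RNA was not tested.

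Against the mean of both cDC subsets, 45 of the other pathway genes were higher (58.4%, against 25.7% of all genes) and 8 lower (10.4%, against 25.7%) in pDC. Preb, which activates the COPII GTPase Sar1, was at 164, 178 and 189 CPM in cDC1, 98, 100.3 and 106 CPM in cDC2 and 89.2, 82.6 and 81.7 CPM in pDC. The order was cDC1, cDC2, pDC without overlap, and the log2 fold change of pDC against the mean of both cDC subsets was -0.66 ± 0.08 (adjusted p = 0.00012). Prdm1, the factor BLIMP1, was at 0.984, 0.792 and 0.474 CPM in cDC1, 6.76, 6.02 and 6.7 CPM in cDC2 and 0.696, 0.608 and 0.236 CPM in pDC. It was prominent in cDC2 alone, and pDC against cDC1 was -0.53 ± 0.45 (adjusted p = 0.36). Trib3, a target of CHOP, had no count in any pDC library and at most 0.729 CPM in a cDC library, and its adjusted p for pDC against the mean of both was 0.017.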

How the data were processed

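RNA from sorted splenic cDC1, cDC2 and pDC was sequenced from one end over 75 bases after TruSeq Stranded mRNA preparation. The authors deposited raw read counts per gene for the 9 libraries, without normalization. The submitters' processing notes name STAR, SAMtools, MultiQC, featureCounts and mm10; versions, the annotation and the strand setting are not given in the sources used here. The paper names Degust without its test. No column of per-sample values was left out.

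From the counts, genes were kept by filterByExpr (minimum count 10), which left 13819 of 39179, scaled by TMM and fitted with the subset as the only term in R 4.3.3 with edgeR 4.0.16 (glmQLFit, glmQLFTest). P-values were adjusted by Benjamini-Hochberg over all genes tested, with a threshold of 0.05. The ± values beside log2 fold changes are approximate SE. Each is the size of the log2 fold change divided by the square root of the F value of its test. Libraries of the same subset differed beyond sampling noise (chi-square per degree of freedom 9.93 to 64.4), and each is a pool of mice. Same-numbered libraries carry the same date-like code and deviated together, so that the number is given as a block where it matters. The correlation of their deviations from the subset means, on log2 CPM plus 1, had a mean of 0.40 (0.27 to 0.54) over 9 pairs. Over pairs with different numbers the mean was -0.18. Deviations within a subset sum to 0, so that this second mean is tied to the first and is no separate evidence. Alternatives were the block, DESeq2 1.42.0, limma-voom (limma 3.58.1), other scalings, filters and thresholds, each library left out, and, chosen after seeing the data, a fit of the 6 libraries of replicates 1 and 2. On simulated data for pDC against the mean of both cDC subsets (13601 genes), edgeR recovered 91 of 100 changes of 2-fold and 98 of 100 of 4-fold, with 5.97% of calls false. The simulation gave every gene the same spread, had no shared effect of the replicate number and changed few genes. In the data, 51.4% of all genes were called in this comparison, so that these rates need not hold for them.

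The members and gene lists were chosen with earlier results of these data known. Genes with values per library were the 6 sensors and transcription factors and Hspa5, up to 2 members per role with the largest difference of pDC from the mean of both cDC subsets, and the 3 largest rises and falls of cDC2 against cDC1, each past the threshold and in the same direction in all 3 numbers (of other pathway genes, the 3 largest rises and falls in pDC). Rpn1, Calr, Pdia3, Pdia6, Canx, Sdf2l1, Sel1l, Sec11a, Kdelr2, Srp9 and Srp14 were named after their values were seen. Gene positions and sequence shared between genes are from GENCODE M21 (GRCm38), and promoters from RefSeq on GRCm38.p6. The plots used matplotlib 3.10.9 under Python 3.11.15.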

Additional observations from a re-analysis of the deposited data

How the results depend on the processing

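The counts of members called kept within 1.5 times of their value with DESeq2, limma-voom, other scalings, other filters on low counts, the 6 libraries of the compared subsets alone and the 6 libraries of replicates 1 and 2 (the last chosen after seeing the data). With the replicate block, 52 members were called in cDC2 against cDC1 in place of 32. The block ended no call of a member. An adjusted p under 0.01 left 21 calls in cDC2 against cDC1. When the log2 fold change also had to be at least 1 in size, 7 calls were left in pDC over cDC1, 18 in pDC over cDC2, 11 in cDC2 over cDC1, 11 in pDC over the mean of both cDC subsets and 26 for any difference. It left 0 of 29 in edgeR's test of replicate 3, where the largest difference was 0.95 (Dnajb9) and DESeq2 called 37 and limma-voom 36 at an adjusted p under 0.05 alone. Leaving out 1 library at a time gave 25 to 31 calls in pDC over cDC1, 45 to 50 in pDC over cDC2, 24 to 38 in cDC2 over cDC1, 38 to 46 in pDC over the mean of both, 46 to 52 for any difference and 24 to 35 for replicate 3. Shares of all genes are not given for the stricter thresholds, for DESeq2 and limma-voom or with a library left out. The counts under these settings therefore describe the members alone and are not set against all genes. Scaling by library size only moved the median log2 fold change of all genes to 0.11 in pDC against cDC1 and 0.14 in cDC2 against cDC1.

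Of 1950 alternative values for the 26 members named by rule, 1834 kept their direction and their side of the threshold, 51 lost a call, 43 gained one and 22 changed sign. Every change of sign was in a difference that was not called. These differences lay near 0, except for the imprecise one of Derl3 in pDC against cDC1. The log2 fold change of Eif2ak3, cDC2 against cDC1, was -0.0032 with the replicate block, -0.0021 with DESeq2, -0.00051 with limma-voom, -0.019 with upper quartile scaling and -0.0022 with RLE factors, and -0.088 to 0.097 with a library left out. That of Kdelr1, cDC2 against cDC1, was 0.024 with library size only, 0.043 on the 6 libraries of replicates 1 and 2, and -0.19 to 0.038 with a library left out. For Ssr4, pDC against cDC1, it was 0.0020 with library size only and -0.25 to 0.059 with a library left out, and for P4hb, pDC against cDC1, -0.045 to 0.13. For Creld2, pDC against cDC1, it was 0.078 with library size only, 0.014 on the 6 libraries of replicates 1 and 2 and -0.097 to 0.037 with a library left out, and for Derl3, pDC against cDC1, 0.14 on those 6 libraries and -0.45 to 0.34. The cause was not tested. Derl3, Ddit3 and Sec61g were among the weakly expressed members, with few counts per library.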

Other observations

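Within pairs of related genes, the ratio of their levels per length of exon varied among the subsets, given here as values with no test. The size of each ratio depends on the joined exon lengths used, while its order among the subsets does not. The ratio of Stt3b to Stt3a, the alternative catalytic subunits of the oligosaccharyltransferase, was 0.77 to 0.966 in cDC1, 1.58 to 1.87 in cDC2 and 1.37 to 1.83 in pDC, so that cDC1 stood below the other two. The ratio of Sec24d to Sec24a was 4.71 to 8.07 in cDC1, 1.68 to 2.85 in cDC2 and 15.0 to 23.5 in pDC, with no overlap. Edem1 to Edem2 was 0.839 to 1.08 in cDC1, 0.994 to 1.19 in cDC2 and 0.295 to 0.387 in pDC. Pdia4 to Pdia3 was 0.142 to 0.152 in cDC1, 0.141 to 0.16 in cDC2 and 0.33 to 0.34 in pDC, which set pDC apart from both cDC subsets. Kdelr2 to Kdelr1 was 0.531 to 0.567 in cDC1, 0.362 to 0.421 in cDC2 and 0.307 to 0.328 in pDC. Sec11c to Sec11a was 1.29 to 1.61 in cDC1, 0.817 to 1.43 in cDC2 and 1.97 to 2.48 in pDC.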
